A study of Mus musculus with 6 samples.

Results

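The 10 genes of goblet cell mucus followed here in intestinal crypts after activation of YAP were Muc2, Tff3, Agr2, Clca1, Fcgbp, Zg16, Spink4, Galnt12, Ramp1 and Klk1. They were chosen by symbol, with earlier results of these data known. Each was read from 1 probe set, the brightest on average of those annotated with its symbol alone. By that rule 8 of the 10 were measured among 19938 genes tested. Fcgbp stood only on probe sets annotated with several genes, and no probe set was annotated with Klk1, so neither is reported. YAP transgenic mice (YAP Tg, n = 3) carried YAP-S127A, in which the coactivator of transcription has lost an inhibitory phosphorylation site of the Hippo pathway. Villin-rtTA, which is active across the intestinal epithelium, switches it on with doxycycline, so expression is not limited to goblet cells. Control mice (n = 3) are labelled only as controls. By the design text mice received doxycycline for 2 days, and neither the transgenes of the controls, nor whether they received the drug, nor strain, age, sex or gut segment is given. Crypts were released from the gut with EDTA and not cultured, and each array held the RNA of 1 mouse.

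Goblet cells are the secretory cells of the gut epithelium that make its mucus. The mucin Muc2 forms the polymer of the gel. It is folded in the endoplasmic reticulum, coated with O-linked sugars in the Golgi, packed into granules and released together with smaller proteins such as trefoil factor 3 (Tff3), the protease Clca1, the IgG Fc binding protein Fcgbp and the lectin-like Zg16. Agr2, a protein disulfide isomerase, is needed in mice for Muc2 to be made, and Galnt12 is one of the transferases that attach the first sugar, GalNAc, to mucin. Spink4, of the Kazal type of protease inhibitors, and Klk1, a tissue kallikrein, are goblet cell products with less settled roles. Ramp1 is a membrane protein that joins the calcitonin receptor-like receptor to form the receptor for CGRP.

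In YAP Tg crypts the processing factors fell and the gel components measured did not pass the test. Of the 8 members, 4 fell and 0 rose by limma at an adjusted p below 0.05 over all genes, where 6.70% of all genes tested fell and 7.50% rose. At an unadjusted p below 0.05, 5 were lower, Muc2 being the fifth, and 0 higher, where 16.2% of all genes were lower and 13.7% higher. The 4 that fell, Agr2, Galnt12, Spink4 and Ramp1, were also those whose 3 YAP Tg arrays all lay below the 3 control arrays, which held for 17.0% of all genes. The count was 3 without YAP Tg mouse 1 or any 1 control, when Spink4 lost its call, and 5 without YAP Tg mouse 3, when Muc2 passed. As the members were chosen with earlier results of these data known, their counts beside those of all genes are a description and no test. In whole crypts, fewer goblet cells and less RNA of a gene per cell cannot be told apart.

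The arrays stood apart by group, and markers of some other cell types differed between the groups. Along the first principal component (75% of variance), the controls lay together and YAP Tg mouse 2 lay nearest to them. The marker counts that follow are to be read beside the 6.70% of all genes tested that fell and the 7.50% that rose. Of 12 T cell markers 11 rose and none fell, with a summed linear signal of 25457 to 31156 in YAP Tg and 9979 to 11891 in control arrays. Of 10 stem cell markers 9 fell (1795 to 3708 in YAP Tg and 12804 to 13490 in control arrays). Of 11 Paneth cell markers 4 fell (31937 to 36921 in YAP Tg and 34267 to 48742 in control arrays), of 14 enterocyte markers 4 fell and 1 rose (74064 to 93951 in YAP Tg and 98192 to 99934 in control arrays), and of 14 enteroendocrine markers 2 fell and 1 rose (4734 to 6083 in YAP Tg and 6309 to 7450 in control arrays). None of 8 tuft cell markers was called by limma, nor was any at an unadjusted p below 0.05, although 3 were higher without YAP Tg mouse 2. The lowest deposited log2 value was 1.99, so no marker could stand at 0, and a listed value does not show that a marker was detected. The part of these shifts in the mucus genes was not tested. Leaving out 1 control gave 4 or 5 stem cell, 1 or 2 Paneth cell and 1 or 2 enterocyte markers that fell. Over all genes 369 to 462 were then lower, against 1336 with all arrays. Without YAP Tg mouse 3 there were 7 enterocyte markers that fell, when 811 of all genes were lower. Leaving out YAP Tg mouse 1 or 3 gave 2 Paneth cell markers, and leaving out mouse 3 gave 6 stem cell markers. The enteroendocrine counts were 5 lower and 3 higher without YAP Tg mouse 2, 1 lower and 0 higher without YAP Tg mouse 1, YAP Tg mouse 3, control mouse 1 or control mouse 3, and 2 lower and 0 higher without control mouse 2. Lyz1, the Paneth cell lysozyme, had log2 signals of 12.90 to 13.39 in YAP Tg and 13.31 to 13.68 in control crypts. Alpi, an alkaline phosphatase of villus cells, stood at 13.08 to 13.48 in YAP Tg and 12.99 to 13.04 in control crypts. Both were picked by hand and do not stand for their lists. The median log2 change was -0.41 for the Paneth cell, -0.45 for the enterocyte and -1.61 for the stem cell markers. The YAP target Ccn1 stood at 10.60 to 10.80 in YAP Tg and 6.16 to 6.22 in control crypts, a log2 change of 4.49, its relative Ccn2 changed by 1.65, and the probe set of Yap1, which may not cover the transgene, at 8.98 to 9.27 in YAP Tg and 9.30 to 9.48 in control crypts (-0.24, limma's adjusted p = 0.184).

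The stretches upstream of Muc2 and Agr2 are shown because Muc2 forms the gel and Agr2, the folding enzyme, is the member that fell furthest. Each holds the 250 bases before the annotated start of the gene, from RefSeq on the mouse build GRCm38.p6, both on the plus strand, at chr7:141690090-141690339 for Muc2 and at chr12:35992675-35992924 for Agr2. Capitals mark any match to CATTCC (the TEAD core, read also as GGAATG on the other strand), CAGCTG (an E-box core of the kind bound by Atoh1 and related factors, the same on both strands) or GTAAACA (a forkhead core, TGTTTAC on the other strand).
Muc2: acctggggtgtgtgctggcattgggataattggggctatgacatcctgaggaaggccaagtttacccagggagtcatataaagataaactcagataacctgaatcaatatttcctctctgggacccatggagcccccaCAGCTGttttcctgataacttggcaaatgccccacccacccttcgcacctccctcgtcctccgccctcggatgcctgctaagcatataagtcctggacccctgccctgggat
Agr2: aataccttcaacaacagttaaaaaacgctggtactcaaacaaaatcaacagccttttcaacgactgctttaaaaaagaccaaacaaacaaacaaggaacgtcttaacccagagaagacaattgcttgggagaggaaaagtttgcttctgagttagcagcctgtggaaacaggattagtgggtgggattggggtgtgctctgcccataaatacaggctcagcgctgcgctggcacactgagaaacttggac
Muc2 has a CAGCTG 112 to 107 bases before its start and no other match, and Agr2 has none of the 3. Of 32851 promoters in the table, 13.0% held CAGCTG, 12.6% the TEAD core and 3.17% the forkhead core in this window. The table had 5 of the 10 members: Fcgbp also holds one CAGCTG, 208 to 203 bases before its start, and Ramp1 and Klk1 have no match. A match is a run of letters, not a measured site.

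Agr2, the disulfide isomerase of mucin folding, fell furthest. Its log2 signal (probe set 10395365) was 9.92, 10.52 and 10.27 in YAP Tg mice 1, 2 and 3, against 12.40, 12.48 and 12.45 in control mice 1, 2 and 3. Every YAP Tg array lay more than 1 log2 unit below every control array, and the controls lay within 0.09 of each other. The mean was 10.24 ± 0.30 in YAP Tg and 12.44 ± 0.04 in control crypts (SD, n = 3 each), a log2 change of -2.21 (SE 0.15, 95% interval -2.58 to -1.84, limma's adjusted p = 0.000988), so that 21.7% of the control signal was left. Of all genes tested, 163 changed by more in either direction, and Agr2 was 97th by p. Across the 15 alternatives the change ran from -2.35 to -2.05 and the adjusted p did not exceed 0.013.

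Galnt12, the GalNAc transferase, fell by 1.43 on the log2 scale. Its log2 signal (probe set 10504763) was 6.81, 7.21 and 7.08 in YAP Tg mice 1, 2 and 3, against 8.45, 8.66 and 8.28 in control mice 1, 2 and 3. The groups did not overlap, and their spread was alike. Means were 7.03 ± 0.20 in YAP Tg and 8.46 ± 0.19 in control crypts (SD, n = 3 each; SE of the change 0.14, 95% interval -1.77 to -1.08, limma's adjusted p = 0.00247). This left 37.2% of the control signal, and the adjusted p stayed at or below 0.0212 in all alternatives.

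Muc2, the gel-forming mucin, was lower on average but variable. Its log2 signal (probe set 10558992) was 9.68, 9.21 and 10.41 in YAP Tg mice 1, 2 and 3, against 10.59, 10.83 and 10.39 in control mice 1, 2 and 3. YAP Tg mice 1 and 2 lay below all controls, while mouse 3 lay among them, between control mice 3 and 1. The log2 difference was -0.84 (SE 0.30, 95% interval -1.57 to -0.10, unadjusted p = 0.0317, limma's adjusted p = 0.13), with means of 9.77 ± 0.61 in YAP Tg and 10.60 ± 0.22 in control crypts (SD, n = 3 each). Without YAP Tg mouse 3 it passed the test at -1.16 (limma's adjusted p = 0.034), so that 1 mouse decided the call.

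Tff3, the trefoil peptide, Clca1, the metalloprotease that cleaves Muc2, and Zg16, which binds bacterial cell walls, were among the brightest probe sets of the arrays, and their groups overlapped. Tff3 (probe set 10449657) had 12.96, 12.74 and 13.27 in YAP Tg mice 1, 2 and 3, against 13.16, 12.96 and 13.11 in control mice 1, 2 and 3. Clca1 (probe set 10502622) had 12.61, 12.62 and 13.17 in YAP Tg mice 1, 2 and 3, against 12.86, 13.19 and 12.97 in control mice 1, 2 and 3. Zg16 (probe set 10568165) had 12.98, 12.67 and 12.99 in YAP Tg mice 1, 2 and 3, against 13.16, 12.88 and 13.06 in control mice 1, 2 and 3. In each of them at least 1 YAP Tg mouse lay within the range of the controls or above it. The log2 difference was -0.09 for Tff3 (95% interval -0.44 to 0.26, limma's adjusted p = 0.717), -0.21 for Clca1 (-0.64 to 0.22, limma's adjusted p = 0.479) and -0.16 for Zg16 (-0.45 to 0.14, limma's adjusted p = 0.438). All 3 intervals exclude a fall as large as that of Agr2 or Galnt12 on this scale. The sign for Tff3 is not settled: it was 0.03 with quantile normalization and 0.04 without YAP Tg mouse 2 or with array weights. These 3 genes lay at the 99.8th percentile of mean signal. Of the 47 genes at least as bright as the dimmest of them, with a mean log2 signal of 12.90 or more, 1 fell (2.13%) and 2 rose (4.26%); whether the brightest probe sets respond in proportion to RNA was not tested.

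Spink4, of the Kazal inhibitors, fell without overlap of the groups. Its log2 signal (probe set 10504002) was 11.74, 11.36 and 12.11 in YAP Tg mice 1, 2 and 3, against 12.59, 12.68 and 12.73 in control mice 1, 2 and 3. No YAP Tg value reached the controls. The log2 change was -0.93 (SE 0.19, 95% interval -1.38 to -0.48, limma's adjusted p = 0.0238), with means of 11.74 ± 0.37 in YAP Tg and 12.67 ± 0.07 in control crypts (SD, n = 3 each). The call was lost without YAP Tg mouse 1 (adjusted p = 0.0686) and without control mouse 1, 2 or 3 (0.0894, 0.1 and 0.106).

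Ramp1, the receptor subunit, fell by 0.77 on the log2 scale. Its log2 signal (probe set 10348537) was 6.13, 6.01 and 6.23 in YAP Tg mice 1, 2 and 3, against 6.85, 6.94 and 6.88 in control mice 1, 2 and 3. The groups were tight and did not overlap. The mean signal of Ramp1 was modest, at percentile 45.1 over all genes. Means were 6.12 ± 0.11 in YAP Tg and 6.89 ± 0.04 in control crypts (SD, n = 3 each; SE of the change 0.08, 95% interval -0.96 to -0.57, limma's adjusted p = 0.00297). The call held in all 14 alternatives that kept the gene. Among 8 measured partners of Ramp1 (related receptors, subunits and peptides) none fell by limma or at an unadjusted p below 0.05, and 1 rose, Adm, which encodes the peptide adrenomedullin (log2 change 2.40, limma's adjusted p = 0.0181; not called without any 1 control, up to 0.0867). With YAP Tg mouse 2 left out, 1 partner was lower. Calcrl, the receptor itself, also picked by hand, had low signals of 5.46 to 5.57 in YAP Tg and 5.32 to 5.46 in control crypts.

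**Figure D1:**
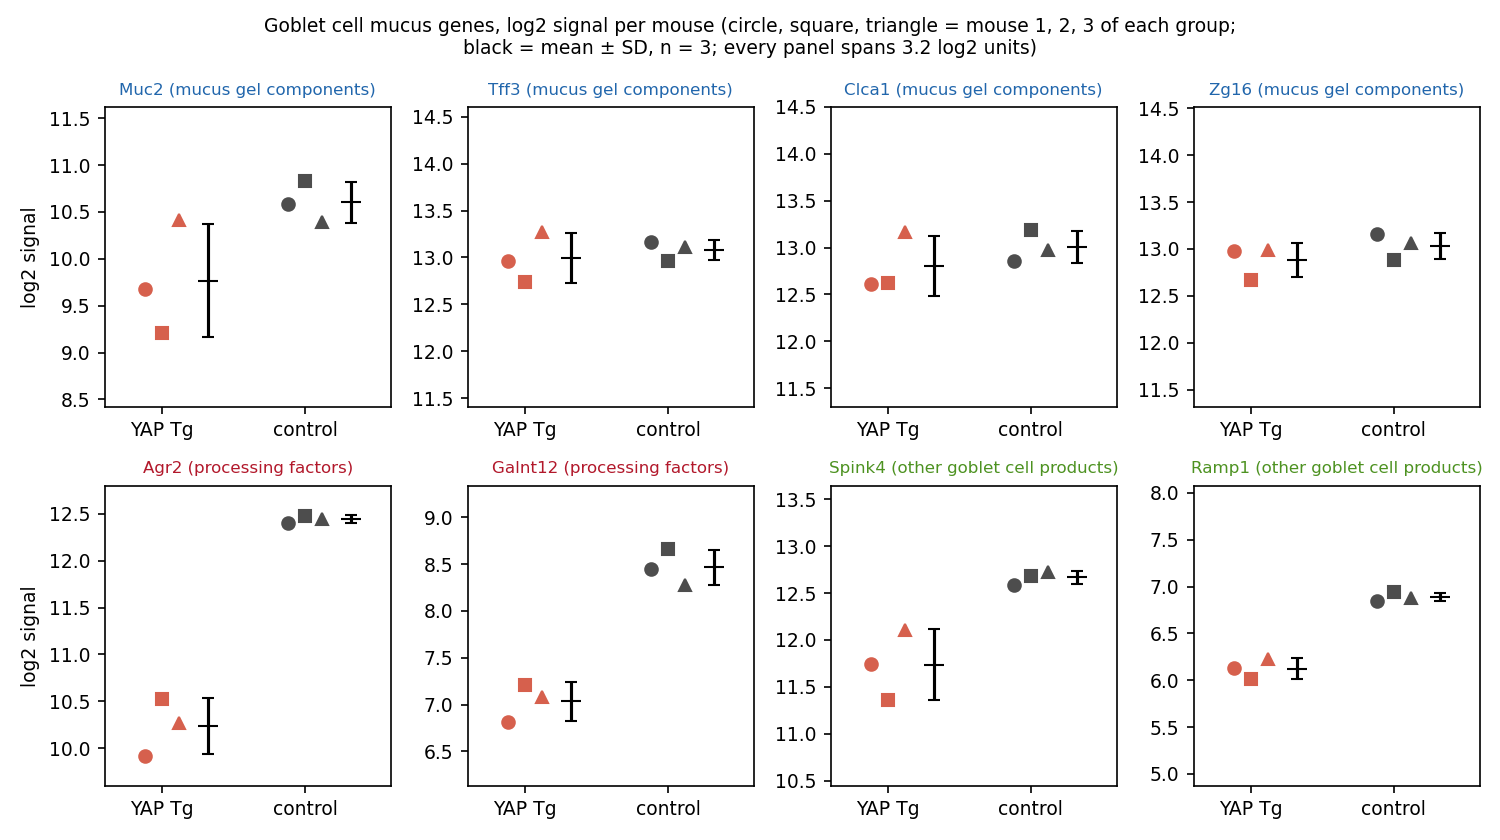
Log2 signal (vertical axis) of each of the 8 measured members in 3 YAP Tg mice (red, left) and 3 control mice (grey, right), with the mean ± SD in black; all panels span the same number of log2 units. Agr2, Galnt12, Spink4 and Ramp1 separate the groups, whereas Muc2, Tff3, Clca1 and Zg16 overlap.

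**Figure D2:**
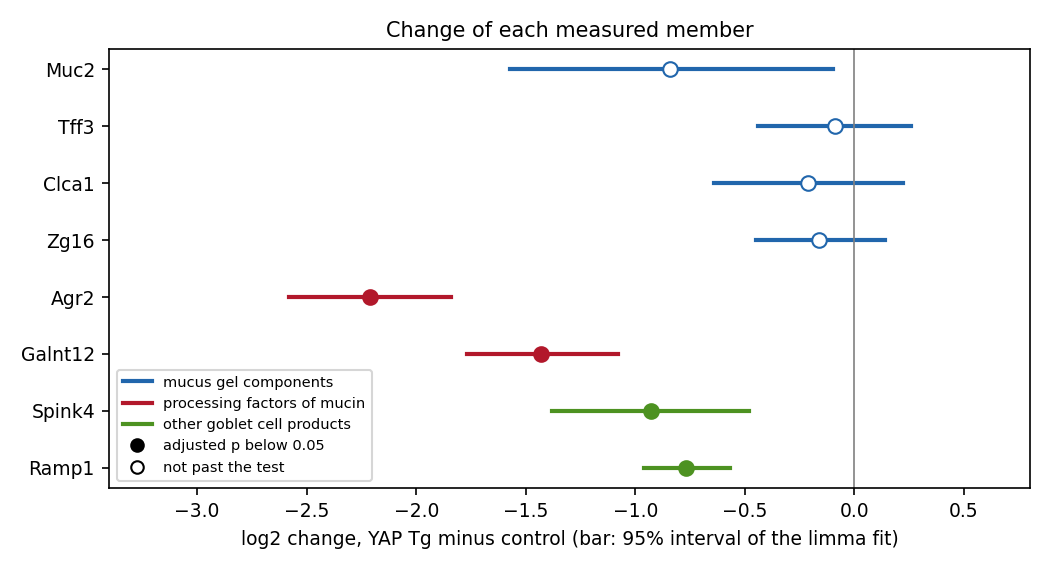
Log2 change of each member, YAP Tg minus control (horizontal axis), with the 95% interval of the limma fit; filled points passed an adjusted p below 0.05. The intervals of Agr2 (-2.58 to -1.84) and Galnt12 (-1.77 to -1.08) lie left of those of Tff3, Clca1 and Zg16, and the interval of Muc2 (-1.57 to -0.10) overlaps those of Galnt12, Tff3, Clca1 and Zg16 but not that of Agr2.

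The members did not follow 1 order across YAP Tg mice. The gel components had a median difference from the control mean of -0.26 in YAP Tg mouse 1, -0.38 in mouse 2 and 0.06 in mouse 3. The processing factors had medians of -2.09, -1.59 and -1.78 in the same mice. YAP Tg mouse 2 thus had the smallest fall of Agr2 and Galnt12 and the lowest values of 5 other members, Muc2, Tff3, Zg16, Spink4 and Ramp1. YAP Tg mouse 3 had the highest value of 6 members and the lowest of none. The median difference of all genes was between -0.00 and 0.05 in these mice.

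Within each array, the processing factors were set against the gel components as log2 ratios, over 8 pairs. Agr2 over Muc2 was 0.24, 1.32 and -0.15 in YAP Tg mice 1, 2 and 3, against 1.81, 1.66 and 2.06 in control mice 1, 2 and 3. This ratio differed by -1.37 (SE 0.45) between the groups, and no YAP Tg value reached the controls. Agr2 over Tff3 differed by -2.12 and over Zg16 by -2.05, and over Clca1 it averaged -2.56 ± 0.42 in YAP Tg and -0.56 ± 0.13 in control arrays (SD, n = 3 each). Galnt12 over Tff3, Clca1 and Zg16 differed by -1.34, -1.22 and -1.27. None of these groups overlapped. Galnt12 over Muc2 differed by -0.59 (SE 0.39) and overlapped, since YAP Tg mouse 2 lay above all controls. The two-sided exact permutation p was 0.1 for each of the 7 pairs without overlap and 0.4 for Galnt12 over Muc2 (0.114 and 0.4 adjusted over the 8 pairs, n = 3 against 3). As 0.1 is the smallest p that 3 against 3 arrays allow, no pair could pass 0.05, and any pair without overlap had to give 0.1. The pairs also share genes, which were chosen with earlier results of these data known. The ratios are thus a description, and nothing is concluded from their p-values.

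**Figure D3:**
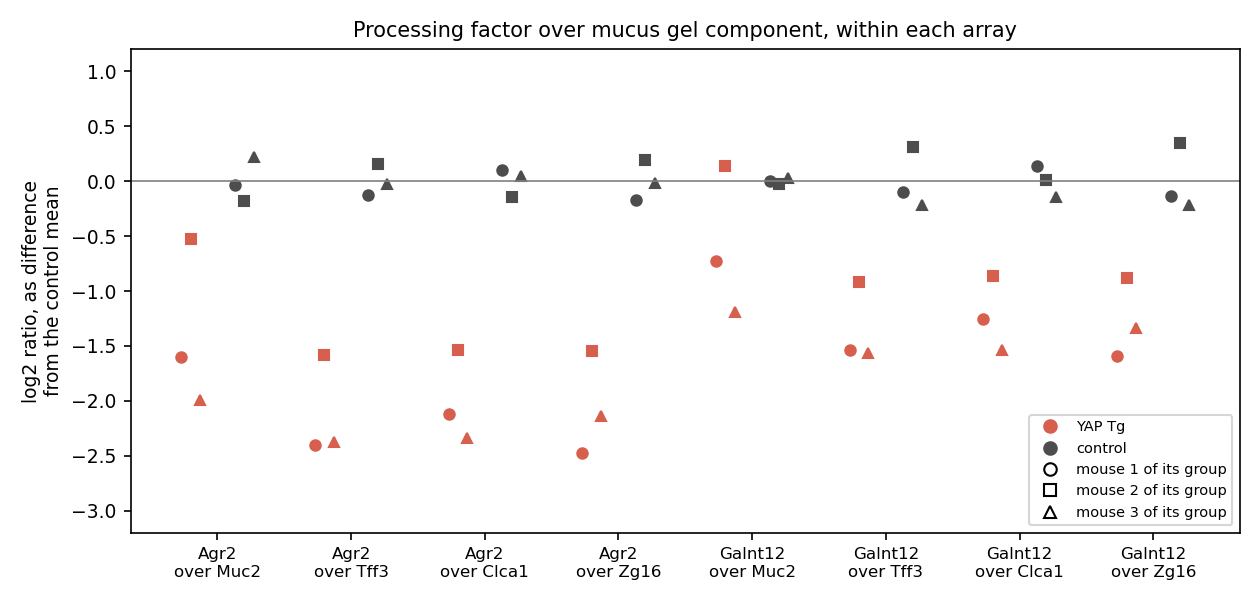
Log2 ratio of a processing factor over a gel component within each array, as the difference from the control mean (vertical axis), for the 8 pairs; red symbols on the left are YAP Tg mice, grey symbols on the right control mice, and the shape gives the mouse number. In each pair YAP Tg mouse 2 (square) is the highest of its group, and in Galnt12 over Muc2 it lies above all controls.

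Over the lists described next and the partners of Ramp1 given above, 163 genes beside the members were measured. Of these 43 fell (26.4%) and 12 rose (7.36%), with a median log2 change of -0.21. Of all genes tested 6.70% fell and 7.50% rose, with a median of 0.03. The share that rose was thus near that of all genes. Leaving out control mouse 1, 2 or 3 gave 20, 20 or 23 lower and 6, 5 or 4 higher. Leaving out YAP Tg mouse 2 gave 69 lower and 24 higher, and leaving out YAP Tg mouse 3 gave 7 higher. The counts of lists below are from limma at an adjusted p below 0.05, to be read beside these shares of all genes, and lists share some genes.

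Transcription factors of the secretory lineage fell in part. Of 14 measured, 6 fell and 1 rose (median -0.65). Creb3l4 (-1.94) and Creb3l1 (-1.76), membrane-bound factors of secretory cells, and Bhlha15 (-1.40), which enlarges the secretory machinery, fell, with adjusted p of 0.00101 to 0.00594, and Klf4, a factor of goblet cell differentiation, rose by 1.50 (adjusted p = 0.00602). Atoh1, which specifies the secretory lineage, had 7.49, 7.53 and 8.87 in YAP Tg mice 1, 2 and 3, against 9.93, 10.10 and 9.72 in control mice 1, 2 and 3 (log2 change -1.95, SE 0.38, adjusted p = 0.0214). Spdef, which drives goblet cell maturation, had 7.86, 7.69 and 7.82 in YAP Tg mice 1, 2 and 3, against 8.55, 9.14 and 8.84 in control mice 1, 2 and 3 (-1.05, SE 0.16, adjusted p = 0.0088). Neither gene's groups overlapped. The count that fell was 4 when control mouse 1 or 2 was left out and 3 for control mouse 3, and without YAP Tg mouse 2 there were 2 that rose.

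Enzymes that build and cap O-linked sugars moved both ways. Of 31 measured, 7 fell and 7 rose (median -0.04). Gcnt1, which makes the core 2 branch, rose by 3.87 (adjusted p = 0.000787) and Hs3st1, a sulfotransferase of heparan sulfate rather than of mucin, by 1.54 (0.00101), while Gcnt4, a relative of Gcnt1, changed by -0.86 (0.00296). Of the 10 Galnt genes in the list, a subset taken after their values were seen, 5 fell, Galnt12 among them, and 1 rose (median -0.46). Of these, Galnt5 changed by -1.29, Galnt4 by -0.90, Galnt1 by -0.52 and Galnt11 by -0.41, and Galnt3 rose by 0.77. Without control mouse 1, 2 or 3 just 2 of the 10 fell, without YAP Tg mouse 3 there were 3, and 1 rose in each setting. In the whole list 3 fell without any 1 control, 4 without YAP Tg mouse 3 and 11 without YAP Tg mouse 2, and 4 or 3 rose without control mouse 2 or 3.

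Of 18 genes that supply activated sugars and sulfate, 6 fell and 0 rose (median -0.40; 12 lower and 0 higher at an unadjusted p below 0.05, against 16.2% and 13.7% of all genes). Papss1, which makes the sulfate donor, fell by 1.00 on the log2 scale, Nanp, of sialic acid synthesis, by 0.57, Slc35a3, a Golgi transporter of UDP-GlcNAc, by 0.49 and Gnpnat1, of UDP-GlcNAc synthesis, by 0.42 (adjusted p from 0.00288 to 0.025). This count moved when 1 array was left out, as did the count over all genes. Without control mouse 1, 2 or 3 the list had 1, 1 or 3 lower. Over all genes 369, 421 or 462 were then lower, against 1336 with all arrays. The list had 4 lower without YAP Tg mouse 1 or 3. Without YAP Tg mouse 2 it had 13, when 3889 of all genes were lower. Papss1 was called in every alternative, and the other 3 were each lost in at least 2.

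Of 29 genes of folding and export in the endoplasmic reticulum, 8 fell, Agr2 among them, and 0 rose by limma (median -0.32; 13 lower and 2 higher at an unadjusted p below 0.05, against 16.2% and 13.7% of all genes). Agr3, the neighbour in sequence of Agr2, changed by -1.48, Txndc5, another disulfide isomerase, by -1.46, and Ern2, the stress sensor IRE1 beta of mucus cells, by -1.43 (adjusted p from 0.00336 to 0.00537). The YAP Tg values of Agr3, 4.31, 4.26 and 4.57, lay below the medians of the array control probe sets. Among the 21 that were not called, the chaperones Hspa5, Hsp90b1 and Calr, named after their values were seen, differed by 0.14 (adjusted p = 0.696), -0.15 (0.566) and -0.08 (0.638). The count that fell was 5 without any 1 control and 15 without YAP Tg mouse 2, and 1 rose without YAP Tg mouse 1 or 2.

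Of 18 genes of granule transport and release, 4 fell and 2 rose (median -0.11). Rep15, a Rab15 effector, changed by -2.15 (adjusted p = 0.00744), Scin, an actin-severing protein, by -1.81 (0.0348), and Chrm3, the muscarinic receptor through which acetylcholine triggers mucus release, by -0.94 (0.008), and the fusion protein Stx3 rose by 0.62 (0.023). The count that fell was 2 without any 1 control or YAP Tg mouse 1, and none rose with any array other than YAP Tg mouse 2 left out, when 6 did. Scin was not called without YAP Tg mouse 1 or any 1 control (adjusted p up to 0.133).

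Of 11 other mucins, 0 were called by limma in either direction (1 higher and 0 lower at an unadjusted p below 0.05, against 13.7% and 16.2% of all genes; median 0.07). The membrane mucin Muc13 differed by 0.29 (adjusted p = 0.114) and Muc4 by -0.52 (0.209). They lay at percentiles 99.6 and 58.2 of mean signal over all genes. Of the others, Muc3, named after its values were seen, lay at 97.5 and the rest at 2.52 to 36.7. Most of the count thus concerns dim probe sets, and whether these could show a change was not tested. Muc5ac, Muc5b and Muc6, the gel-forming mucins of airway and stomach, had signals of 5.55 to 6.20 in YAP Tg and 5.57 to 6.10 in control crypts, named after their values were seen, and these overlapped in each gene. Without YAP Tg mouse 2 there were 2 higher, Muc13 among them (adjusted p = 0.0317).

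Of 17 other secreted products, 5 fell and 0 rose by limma (median -0.47; 9 lower and 1 higher at an unadjusted p below 0.05, against 16.2% and 13.7% of all genes). Guca2a, which encodes the peptide guanylin, changed by -2.63, the chemokine Ccl9 by -1.62, the tryptase Tpsg1 by -1.37 and Hgfac, an activator of hepatocyte growth factor, by -0.84 (adjusted p from 0.00697 to 0.0133). Retnlb, a resistin-like protein, varied within both groups, at 7.94, 6.27 and 10.46 in YAP Tg and 6.82, 9.71 and 8.50 in control crypts (adjusted p = 0.957; named after its values were seen). The count that fell was 2, 2 or 3 with control mouse 1, 2 or 3 left out, Ccl9 and Tpsg1 being among those lost, and 1 rose without YAP Tg mouse 2. Of 20 other goblet cell markers, 10 fell and 1 rose (median -0.60), and the 4 with the smallest p were Hpd, an enzyme of tyrosine breakdown (-1.74), the ion transporter Slc12a8 (-2.56), Creb3l1 (-1.76) and Bcas1 (-1.64), with adjusted p from 0.000531 to 0.00584. Without control mouse 1 or 2 there were 6 that fell, none rose without any 1 control or YAP Tg mouse 3, and 2 rose without YAP Tg mouse 2.

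**Figure D4:**
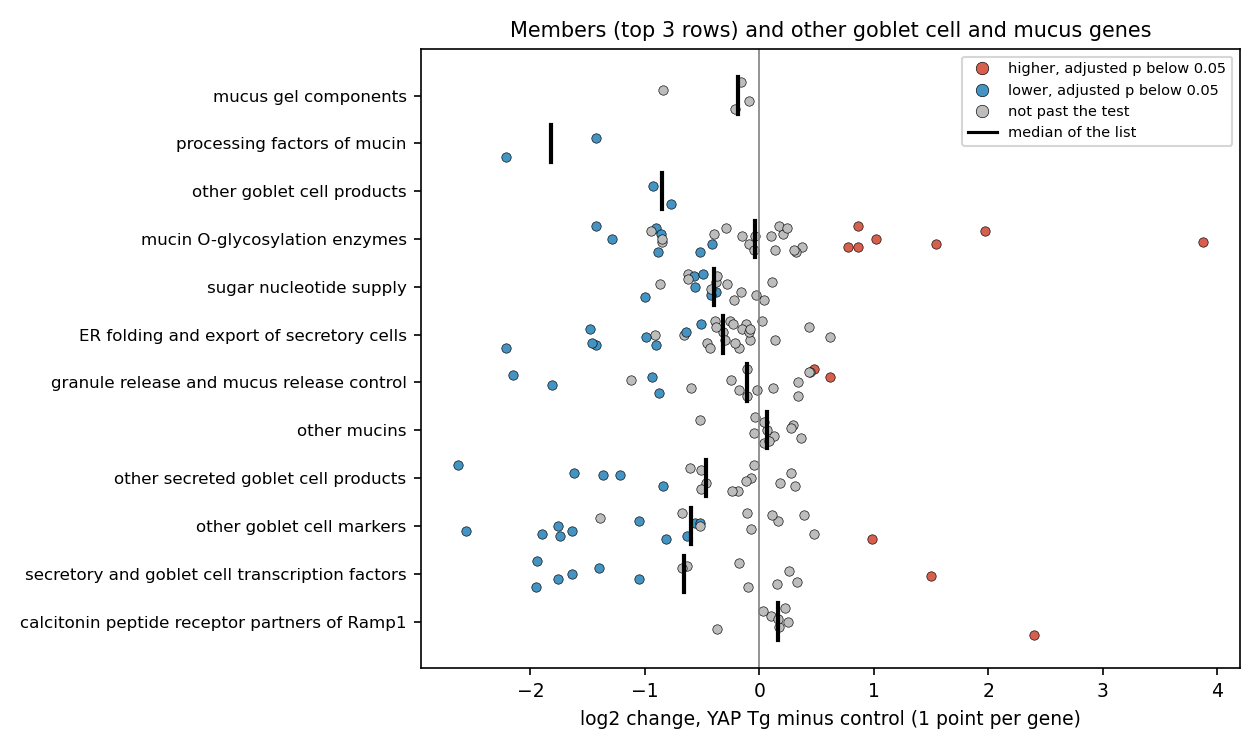
Log2 change, YAP Tg minus control (horizontal axis), of every measured gene of each list (rows, 1 point per gene, members in the top 3 rows); red points rose and blue points fell at an adjusted p below 0.05, grey points did not pass, and the black bar is the list's median. The gel components and the other mucins lie near 0 apart from Muc2 and Muc4, though most of the other mucins had low signals. The O-glycosylation enzymes spread to both sides, with Gcnt1 at 3.87.

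Genes with the most similar course over the 6 arrays were found from the root mean square difference of profiles, each set against its own control mean. For Muc2 they were Fer1l6 (0.079 log2 units), Ckb (0.124), Fbln1 (0.143), Smpx (0.164) and Ano7 (0.186). Fer1l6, for instance, stood at -0.83, -1.45 and -0.12 in YAP Tg mice 1, 2 and 3, beside -0.92, -1.40 and -0.19 for Muc2. For Agr2 they were Akr1c12 (0.142), Faah (0.154), Slc14a1 (0.169), Gpr155 (0.177) and Aqp4 (0.181), with log2 changes of -1.99 to -2.36. No gene was among the nearest 5 of both. The measure counts the size of a change, and Agr2 fell further than Muc2. Neighbours this close could therefore not be shared, and nothing is concluded from it.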

How the data were processed

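RNA of isolated crypts from 3 YAP Tg and 3 control mice was hybridised to Affymetrix arrays, 1 per mouse. The authors deposited a log2 signal for each of 35556 probe sets. The submitters' processing notes name Affymetrix Expression Console (1.1) as the tool; how it corrected background, normalized and summarised is not stated there, and the log2 scale was read from the values (1.99 to 14.4). Probe sets numbered below the first annotated one (6617) were taken as array controls and left out. Of 28939 others, 21789 had 1 symbol, 1621 several and 5529 were not listed. Symbols were matched by Entrez identifier to RefSeq (GRCm38.p6) for 21698; Clca1 is the gene once called gob-5 or Clca3. No source used here names a build for the array, so no probe set positions are printed; promoter positions are those of the RefSeq table. By synonym, Muc19 was read as Smgc, Fut3 as Sec1, Tsta3 as Gfus and Ero1l and Ero1lb as Ero1a and Ero1b.

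Differences were tested with limma 3.58.1 in R 4.3.3 (lmFit, eBayes, no covariate), two-sided, with Benjamini-Hochberg adjustment over 19938 genes at 0.05, and checked on simulated data. Members and lists were chosen with earlier results of these data known. Beside all members, each list's up to 4 called genes with the smallest p (or 2 uncalled), Atoh1, Spdef, Yap1, Ccn1, Ccn2 and the nearest patterns were named; other names are marked. Summed signals add the linear values of a list's probe sets. The p-values of limma set the difference of the groups against the spread between mice within groups, with 1 array per mouse. Alternatives left out each mouse, added a replicate block, or used quantile normalization, median centring, 2 signal filters, a trended robust prior, array weights, averaged probe sets and a threshold of 0.1. Exact permutation tests used scipy 1.17.1.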

Additional observations from a re-analysis of the deposited data

Results flagged for a closer look

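Array control probe sets entered no test, and their median log2 signal was higher in YAP Tg arrays, at 5.33, 5.15 and 5.03 in mice 1, 2 and 3, than in control arrays, at 4.99, 4.97 and 4.97. The difference of the means was 0.20. Of the 8 measured members 4 fell and none rose, where 6.70% of all genes tested fell and 7.50% rose. Whether the higher array control signal bears on these counts was not tested.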

How the results depend on the processing

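Across 15 alternatives, 3 to 5 members were lower and 0 higher. Agr2 and Galnt12 kept their calls in every one, Ramp1 in the 14 that kept it (the filter at the median of all genes removed it), Spink4 in 11 of 15, and Clca1 and Zg16 stayed uncalled. Tff3 was called in none, and its difference was -0.23 to 0.04 with 1 mouse left out, 0.03 with quantile normalization and 0.04 with array weights or without YAP Tg mouse 2. The fall of the processing factors, averaged over YAP Tg mice, was -1.82 and that of the gel components -0.19, against -1.77 and -0.07 with quantile normalization. Over all genes, 1495 were higher and 1336 lower; leaving out 1 mouse gave 669 to 2802 higher and 369 to 3889 lower, the largest counts without YAP Tg mouse 2. For the 163 genes of the wider lists this gave 4 to 24 higher and 20 to 69 lower. Array weights gave 2459 higher and 3481 lower genes over all genes, and 21 higher and 70 lower in the wider lists. An adjusted p of 0.1 gave 2101 lower over all genes. With the replicate number as a block 975 were higher and 727 lower, and 7 of the wider lists were higher; the 4 members kept their calls. Numbers did not pair the mice: correlations of same-numbered deviations were -0.131, 0.0124 and 0.0983, and of the YAP Tg mice mouse 3 alone correlated best with its own number. The causes of these shifts were not tested. With 3 arrays per group, differences as small as those of Tff3, Clca1 and Zg16 are not resolved.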
